A study of Mus musculus with 9 samples.

Results

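Egr1, Egr2, Egr3, Klf2, Klf4, Klf6, Nr4a1 and Nr4a2 are 8 transcription factors of the early response, taken by gene symbol from the 13223 genes of the deposited table. All 8 were listed and all 8 passed the filter on low counts. They were measured in tuft cells, the rare chemosensory epithelial cells of the thymic medulla, sorted from young female wild-type mice. The untreated group had 5 libraries from mice left without treatment, and the irradiated group had 4 libraries from mice of matched age given a sublethal dose of 425 rad 3 days before the thymus was taken. Both groups were wild type, and thymi of both were dissociated with Liberase TH and DNase before the sort. The sources used here do not give the gate, the number of cells per library or whether each library came from its own mouse, so a p-value reflects only how these libraries vary, part of which may be technical. Libraries were made by MARS-seq, which reads the 3' ends of polyadenylated RNA from a pool of cells.

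Early response genes are transcribed within minutes of a stimulus, from transcription factors already present in the cell, and their mRNAs are short-lived. Growth factors and stress act through MAP kinases on serum response factor and its partners, and calcium and cAMP act through CREB and MEF2, to switch them on. The EGR proteins bind GC-rich DNA through zinc fingers and are restrained by the NAB corepressors, which they induce. The KLF proteins bind GC boxes and CACCC elements through a related set of zinc fingers, and the NR4A proteins are orphan nuclear receptors whose activity is set mainly by their amount. Members of all 3 families are also known to be switched on while tissue is dissociated.

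The DNA upstream of a gene holds the sites that such inputs act through, so it is shown here for 4 of the genes. RefSeq windows from 250 bases before to 50 after a start site were at hand for 6 of the 8 genes on GRCm38.p6, the assembly behind mm10. They were searched on both strands for the CArG box bound by serum response factor, for TGACG, the core of the cAMP response element, and for GCGNGGGCG, the EGR binding site. The 4 windows below are read 5' to 3' along each gene, and capitals mark the matches. They show a CArG box in Egr2, EGR sites in Klf4 and repeated TGACG cores in both Nr4a genes. Of these motifs, only the CArG box was found in a single window of the 4.
Egr2 (chr10:67537619-67537918, plus strand): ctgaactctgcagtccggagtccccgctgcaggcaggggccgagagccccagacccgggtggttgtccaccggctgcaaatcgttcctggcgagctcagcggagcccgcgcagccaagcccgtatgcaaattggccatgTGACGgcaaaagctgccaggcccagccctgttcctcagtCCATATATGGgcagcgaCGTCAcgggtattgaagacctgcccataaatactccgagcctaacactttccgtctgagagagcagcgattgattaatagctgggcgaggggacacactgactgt
Klf4 (chr4:55532426-55532725, minus strand): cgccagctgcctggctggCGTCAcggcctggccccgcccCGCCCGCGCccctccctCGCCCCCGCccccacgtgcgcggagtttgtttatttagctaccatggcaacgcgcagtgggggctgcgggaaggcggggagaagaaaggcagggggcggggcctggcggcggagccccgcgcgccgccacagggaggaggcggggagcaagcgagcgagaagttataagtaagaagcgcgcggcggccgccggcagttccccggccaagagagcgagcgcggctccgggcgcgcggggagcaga
Nr4a1 (chr15:101266596-101266895, plus strand): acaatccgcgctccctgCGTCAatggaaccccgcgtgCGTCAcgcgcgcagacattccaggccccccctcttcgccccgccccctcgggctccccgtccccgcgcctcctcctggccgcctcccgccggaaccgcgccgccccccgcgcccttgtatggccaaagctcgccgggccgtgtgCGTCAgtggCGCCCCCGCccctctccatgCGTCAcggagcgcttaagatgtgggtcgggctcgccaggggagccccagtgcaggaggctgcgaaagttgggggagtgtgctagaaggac
Nr4a2 (chr2:57123954-57124253, minus strand): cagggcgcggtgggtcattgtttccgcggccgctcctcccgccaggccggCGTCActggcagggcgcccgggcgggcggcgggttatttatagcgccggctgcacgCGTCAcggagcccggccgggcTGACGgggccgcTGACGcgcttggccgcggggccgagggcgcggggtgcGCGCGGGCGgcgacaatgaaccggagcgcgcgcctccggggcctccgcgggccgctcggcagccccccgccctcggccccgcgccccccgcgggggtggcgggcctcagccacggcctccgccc
In Egr2 the CArG box ran from -72 to -63 relative to this start site, with a TGACG core on either side, from -111 to -107 and from -55 to -51. The gene has 5 RefSeq windows, and 4 of them held a CArG box, but these windows overlap in part and hold 2 different boxes, the one shown being shared by 3 windows. Klf4 held 2 EGR sites, from -211 to -203 and from -194 to -186, and 1 TGACG core. Nr4a1 held 4 TGACG cores, whose far ends were at -233, -213, -69 and -40, and 1 EGR site from -60 to -52. Nr4a2 also held 4 TGACG cores and 1 EGR site, the same counts of these motifs as in Nr4a1. Of the windows not shown, that of Klf2 held 1 EGR site and 1 core, and that of Klf6 held none of these motifs. Among 32817 windows of the same length, 1.63% held a CArG box, 20.8% a TGACG core and 5.56% an EGR site. G and C made up 69.3% of the window of Klf2, 74.3% of Klf4, 72.3% of Nr4a1 and 81.7% of Nr4a2, those with an EGR site. The 32817 windows were not matched for this, so their shares are no test of enrichment. The full element TGACGTCA, which contains the core, was in 1.79% of all windows and in none of these 6 genes. Of the genes without a window shown, 3 lie, in the GENCODE annotation of mm10, at chr14:70077203-70082614 for Egr3, chr8:72319033-72321656 for Klf2 and chr13:5861482-5870394 for Klf6, all on the plus strand and all protein-coding. A match describes the letters and does not show that a factor binds there.

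None of the 8 factors passed the test between irradiated and untreated tuft cells, although all 8 had a higher mean after irradiation. Counts of 8934 genes were compared by edgeR's quasi-likelihood test with Benjamini-Hochberg adjustment over all of them, and levels are given as CPM, counts scaled to the library's total and TMM factor. Among all tested genes 1.22% were called higher, and 47.5% had a log2 fold change above 0, whose median was -0.024. The median over the 8 factors was 0.69, with a range from 0.13 for Nr4a2 to 0.83 for Klf4. At an unadjusted p under 0.05, 6 of the 8 were higher and 0 lower, against 6.07% of all tested genes that were higher. Another tool, the Wald test of DESeq2, called 2 of the 8 higher, Klf4 and Klf6, against a background of 1.40%, and limma-voom called Klf4 alone, against 1.65%. In 3 of the 8, Klf4, Klf6 and Nr4a1, every irradiated library lay above every untreated one, which was so for 3.06% of tested genes, and in 0 of the 8 every irradiated library lay below, which was so for 2.08%.

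**Figure D1:**
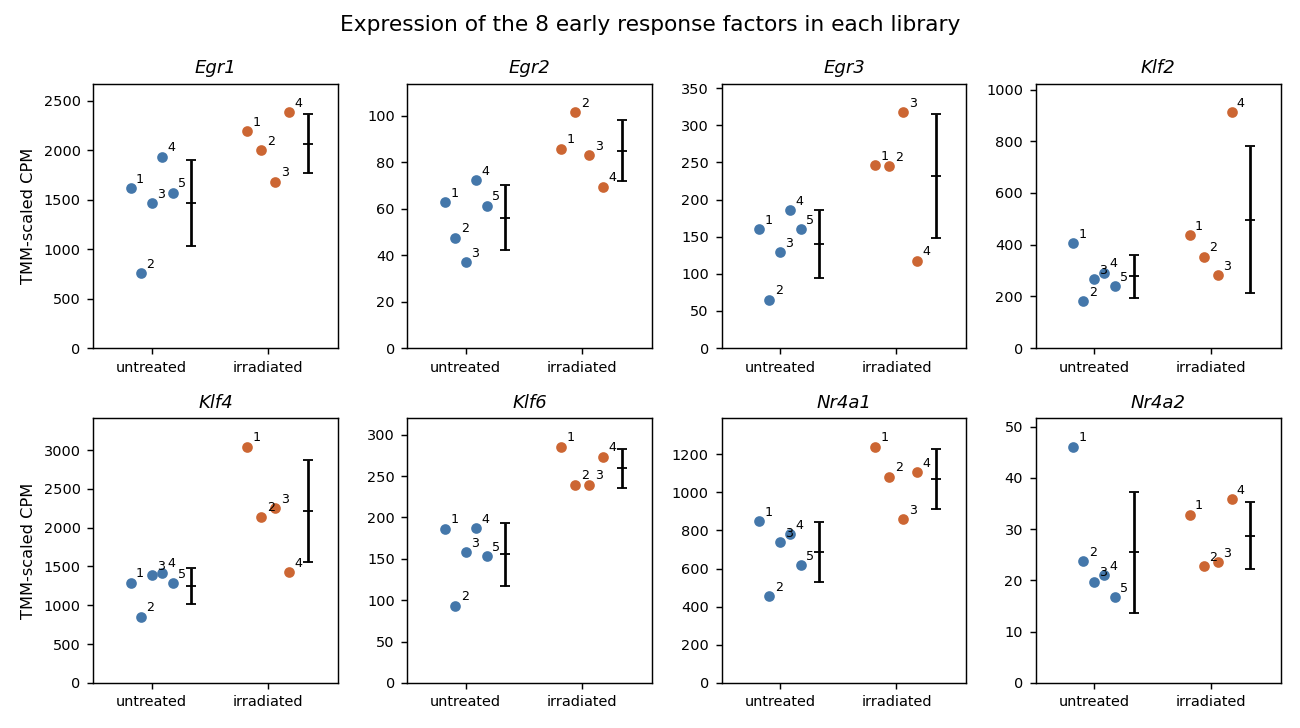
TMM-scaled CPM of each factor in the 5 untreated (blue) and 4 irradiated (orange) libraries, each point labelled with its replicate number, with bars for the mean ± SD and vertical axes that start at 0. The groups lie apart for Klf4, Klf6 and Nr4a1, and untreated replicate 2 is the lowest untreated library for 6 of the 8 genes.

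**Figure D2:**
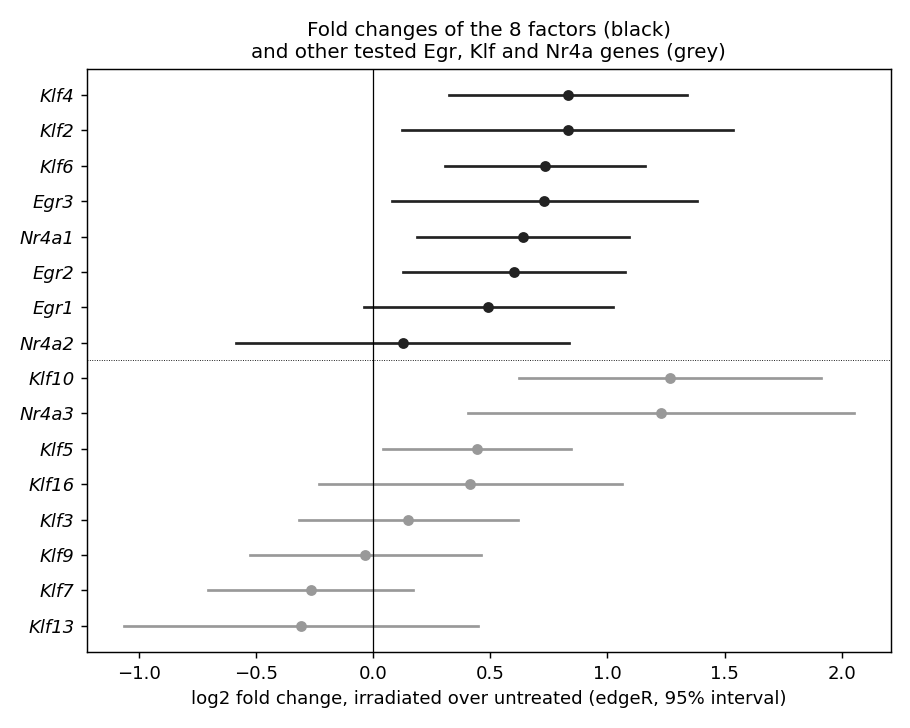
The log2 fold change of irradiated over untreated libraries (horizontal axis) for the 8 factors in black and 8 other tested Egr, Klf and Nr4a genes in grey, with 95% intervals of the edgeR fit as lines. Among the 8 factors the intervals of Egr1 and Nr4a2 include 0, and no gene shown passed the adjusted test.

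Egr1, the most studied early growth response factor, was at 1615, 757, 1461, 1932 and 1571 CPM in untreated replicates 1 to 5. In irradiated replicates 1 to 4 it was at 2192, 2001, 1681 and 2384 CPM. Untreated replicate 2 was the lowest of all libraries, and the groups overlapped, because irradiated replicate 3 lay below untreated replicate 4. The means were 1467 ± 434 (SD, n = 5) and 2064 ± 299.9 CPM (SD, n = 4), a log2 fold change of 0.49 ± 0.25 (SE) with a 95% interval from -0.038 to 1.02 (edgeR adjusted p = 0.519). Without untreated replicate 2 the log2 fold change was 0.32.

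Egr2 directs myelination in Schwann cells and, in T cells, tolerance. It was at 62.8, 47.4, 37.0, 72.3 and 61.3 CPM in untreated replicates 1 to 5 and at 85.8, 102, 82.9 and 69.4 CPM in irradiated replicates 1 to 4. Only irradiated replicate 4 lay below the highest untreated library. The means of 56.2 ± 13.9 and 84.9 ± 13.2 CPM gave a log2 fold change of 0.60 ± 0.22, with an interval from 0.13 to 1.08 (edgeR adjusted p = 0.294). Its counts ran from 30 to 98 per library, so that counting error alone amounts to 15.04% of its mean in the untreated group, beside a measured SD of 24.8%.

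Egr3, which acts with Egr2 in T cells and is needed for muscle spindles, was at 160.2, 65.2, 129, 185 and 160.3 CPM in the untreated libraries. In irradiated replicates 1 to 3 it was at 247, 245 and 318 CPM, and in replicate 4 at 118 CPM. Irradiated replicate 4 thus lay among the untreated libraries and the other irradiated libraries lay above all of them. This gave a log2 fold change of 0.73 ± 0.30, with an interval from 0.08 to 1.38 (edgeR adjusted p = 0.383). With untreated replicate 2 and irradiated replicate 4 both left out, which was added once the data had been seen, it was 0.76 and passed (edgeR adjusted p = 0.0264).

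Of Klf2, Klf4 and Klf6, the groups were apart for Klf4 and Klf6 and overlapped for Klf2. Klf4 restrains proliferation and drives differentiation in epithelia. It was at 1291, 850.4, 1387, 1418 and 1284 CPM in the untreated libraries and at 3043, 2139, 2254 and 1429 CPM in the irradiated ones. The groups were apart by a narrow margin, since irradiated replicate 4 was only 1.01 times the highest untreated library, while the other irradiated libraries lay far above it. The means of 1246 ± 229 and 2216 ± 661 CPM correspond to a 1.78-fold difference with an interval from 1.25 to 2.53, a log2 fold change of 0.83 ± 0.24 (edgeR adjusted p = 0.142). Klf4 passed without irradiated replicate 4, with a log2 fold change of 0.99 (edgeR adjusted p = 0.0257), and adjusted p ranged from 0.0167 to 0.390 over the 21 alternatives.

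Klf6, a broadly expressed factor known as an inducer of Cdkn1a, was at 186, 93.3, 158, 187 and 153 CPM in untreated replicates 1 to 5. It was at 286, 239.4, 239.6 and 274 CPM in irradiated replicates 1 to 4. Its irradiated libraries were close together, with an SD of 9.10% of the mean, and the lowest of them was 1.28 times the highest untreated library. Its log2 fold change was 0.73 ± 0.20, with an interval from 0.31 to 1.16 (edgeR adjusted p = 0.119), and adjusted p ranged from 0.0285 to 0.303 over the alternatives.

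Klf2, which keeps T cells quiescent and endothelium responsive to flow, was at 406, 182, 268, 292 and 238 CPM in the untreated libraries. In irradiated replicates 1 to 3 it was at 437, 353 and 282 CPM, and in replicate 4 at 913 CPM. A single library therefore set the irradiated mean of 496 ± 285 CPM, against 277 ± 82.9 CPM in the untreated group, and the groups overlapped. The resulting log2 fold change was 0.83 ± 0.33, with an interval from 0.12 to 1.54 (edgeR adjusted p = 0.360), and 0.36 without irradiated replicate 4. The summed level of 11 endothelial markers, all of them detected in both groups, was 3912 CPM in irradiated replicate 4, 1036 to 2533 CPM in the other irradiated libraries and 1007 to 2450 CPM in the untreated ones. All 11 were tested, of which 8 had a log2 fold change above 0 and 0 were called. The markers did not move as one. Cldn5 reached 1105 CPM in the highest irradiated library, against 514 CPM in the highest untreated one. For Tek these values were 108 and 122 CPM. The part of endothelial RNA in the level of Klf2 was not tested.

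Nr4a1, the receptor induced in lymphocytes by antigen and in many cells by stress, was at 847, 453, 737, 779.8 and 616 CPM in the untreated libraries. It was at 1239, 1082, 860.0 and 1105 CPM in irradiated replicates 1 to 4. The lowest irradiated library was only 1.02 times the highest untreated one. The means of 687 ± 155 and 1071 ± 157 CPM gave a log2 fold change of 0.64 ± 0.21, with an interval from 0.19 to 1.09 (edgeR adjusted p = 0.214).

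Nr4a2, known for its role in dopamine neurons, was the exception among the 8 in showing almost no difference of means. It was at 46.1, 23.7, 19.7, 21.0 and 16.7 CPM in untreated replicates 1 to 5 and at 32.8, 22.8, 23.5 and 35.8 CPM in irradiated replicates 1 to 4. All irradiated libraries lay below untreated replicate 1. Its log2 fold change of 0.13 ± 0.33 had an interval from -0.58 to 0.84 (edgeR adjusted p = 0.933), an interval that takes in the estimates of the other 7. It rested on 12 to 44 counts per library, and leaving out 1 library moved it between 0.0088, without untreated replicate 5, and 0.47, without untreated replicate 1.

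In the authors' deposited table, all 8 factors had a higher level in irradiated libraries and none carried the authors' flag for passing, against 1.11% of listed genes flagged as higher. By the adjusted p of the authors' deposited table, Klf4 (0.0171) and Klf6 (0.0282) were under 0.05, Nr4a1 was at 0.0592 and the other 5 lay between 0.253 and 0.946. As a background, 1.39% of all genes in the authors' deposited table were higher with an adjusted p under 0.05. No gene flagged there had a log2 fold change smaller than 1 in size, and in the authors' deposited table Klf4 was at 0.85 and Klf6 at 0.75 for irradiated over untreated.

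Within a treatment, libraries low or high for 1 factor were mostly so for others, with irradiated replicate 4 an exception. Untreated replicate 2 was the lowest untreated library for 6 of the 8, the exceptions being Egr2 and Nr4a2. Untreated replicate 4 was the highest untreated library for 5 and untreated replicate 1 for the other 3. In irradiated replicate 4 the factors parted ways: it was the highest irradiated library for Egr1, Klf2 and Nr4a2 and the lowest for Egr2, Egr3 and Klf4. As a description over 9 libraries, deviations from the group means had a median Pearson correlation of 0.45 (Spearman 0.35) over the 28 pairs of factors, of which 23 were positive. Without irradiated replicate 4 the median was 0.66 (Spearman 0.61) and all 28 were positive, down to 0.0014 for Egr3 and Nr4a2. Since that is the library in which the factors parted ways, the higher values without it are no separate support. The same correlation among other genes is not given here for comparison. These values share library depth and scaling.

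**Figure D3:**
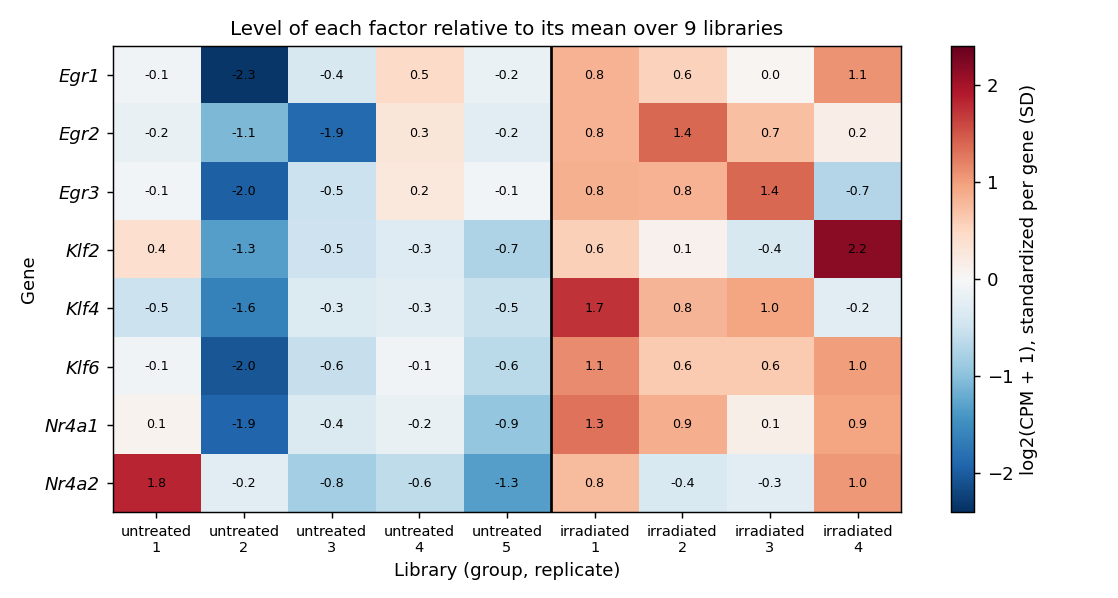
Level of each factor (rows) in each library (columns) as log2(CPM + 1), standardized to the gene's mean and SD over the 9 libraries, with the vertical line between the 5 untreated and the 4 irradiated libraries. Untreated replicate 2 is low for most genes, and irradiated replicate 4 is high for Klf2 and below the mean for Egr3 and Klf4.

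Libraries held 509157 to 978442 counts, so 1 count was worth 1.04 to 2.10 CPM, and irradiated replicate 4 was the smallest and stood apart on the leading principal component (85.8, against -32.7 to 4.56 in the others). All 16 markers of tuft cells were detected in both groups, with a summed level of 7214 to 15478 CPM in untreated and 12333 to 16395 CPM in irradiated libraries, and untreated replicate 2 was the lowest. In bulk samples, fewer cells of a type and less RNA per cell cannot be told apart. Summed markers of fibroblasts and pericytes, 12 of 12 detected, were at 625 to 2420 CPM in untreated and 2915 to 4307 CPM in irradiated libraries. The sum was lowest in untreated replicate 2 and highest in irradiated replicate 1. Dcn, Col1a2 and Col3a1 held most of it, and Dcn averaged 672 CPM untreated and 1476 CPM irradiated. The pericyte marker Rgs5 had the opposite direction, with means of 298 and 139 CPM. Of the 11 tested genes of this list, 8 had a log2 fold change above 0 and 0 were called. Summed markers of mesothelium, 8 of 8 detected, were at 1443 to 2221 and 2601 to 3700 CPM with the highest value in irradiated replicate 1. Most of this sum was Krt19 (means of 1404 CPM untreated and 1789 CPM irradiated) and Msln (436 and 625 CPM). Of the 7 tested, 5 rose, among them Upk3b (12.6 and 245 CPM) and Nkain4 (13.6 and 116 CPM), so the sum understates their change. Summed thymocyte markers, of which 11 of 13 were listed, were at 82.2 to 961 and 25.9 to 50.4 CPM, with Ptcra at 0 in every irradiated library. Macrophage and dendritic cell markers, 13 of 15 listed, were at 308 to 2997 and 193 to 1045 CPM. Markers of cortical and medullary epithelium, 11 of 12 listed, were at 872 to 3242 and 726 to 1026 CPM, and those of B cells, 5 of 6 listed, at 127 to 275 and 114 to 211 CPM, with Cd79a and Ms4a1 at 0 in every irradiated library. The part of these cell types in the levels of the 8 factors was not tested.

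Other members of the families were read from the same fit. Of 24 listed genes (Egr4, Nr4a3, the other Klf genes and the Sp genes), 16 were in the table and 11 were tested, of which 0 rose, 0 fell and 7 had a log2 fold change above 0, with a median of 0.15. At an unadjusted p under 0.05, 3 were higher, and DESeq2 and limma-voom each called 1. Klf10, an early gene of TGF-beta signalling, averaged 35.2 ± 16.2 CPM untreated and 85.4 ± 18.03 CPM irradiated, with groups apart and a log2 fold change of 1.27 ± 0.30 (edgeR adjusted p = 0.0603). It was the gene called by DESeq2 (adjusted p = 0.0144), and edgeR also called it without untreated replicate 4 (adjusted p = 0.0213). Nr4a3, the remaining NR4A receptor, was at 29.4 ± 15.8 and 69.5 ± 24.1 CPM, with a log2 fold change of 1.23 ± 0.38 (edgeR adjusted p = 0.190), and limma-voom called it (adjusted p = 0.0334). Klf5, which favours proliferation in epithelia, was at 384 ± 62.3 and 522 ± 90.4 CPM (edgeR adjusted p = 0.389). The other tested Klf genes lay closer to 0: Klf16 had a log2 fold change of 0.41, Klf3 of 0.15, Klf9 of -0.032, Klf7 of -0.27 and Klf13 of -0.31, with edgeR adjusted p between 0.704 and 0.976.

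The regulators that act on early response promoters were not called. Of 50 listed kinases, adaptors and factors, 44 were in the table and 40 tested, of which 0 rose, 0 fell and 22 had a log2 fold change above 0, with a median of 0.015. At an unadjusted p under 0.05, 1 was higher and 2 lower, and DESeq2 and limma-voom each called 1. That gene was Srf, serum response factor, which averaged 97.5 ± 27.4 CPM untreated and 172 ± 15.3 CPM irradiated, with groups apart and a log2 fold change of 0.82 ± 0.21 (edgeR adjusted p = 0.0934; DESeq2 adjusted p = 0.0222; limma-voom adjusted p = 0.0283). The following genes had negative log2 fold changes that did not pass: the calcium-responsive factor Nfatc3 was at 66.9 ± 17.3 and 43.2 ± 10.6 CPM, and the kinase Map2k1 at 89.8 ± 22.6 and 62.9 ± 10.3 CPM. The guanine nucleotide exchange factor Sos2 was at 35.9 ± 10.6 and 23.9 ± 6.45 CPM. Their edgeR adjusted p lay between 0.348 and 0.541.

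Cofactors that the EGR, KLF and NR4A proteins bind, and proteins that degrade them, gave 0 calls in either direction among 10 tested of 16 listed, with a median of 0.021. At an unadjusted p under 0.05, 1 was lower and 0 higher, and DESeq2 and limma-voom called 0. The corepressor Nab2, itself induced by EGR factors, averaged 19.6 ± 6.07 CPM untreated and 29.5 ± 11.6 CPM irradiated (edgeR adjusted p = 0.645). It had a log2 fold change of 0.54 ± 0.34 that became 0.34 without irradiated replicate 4. The corepressor Ncor1 was at 82.5 ± 10.4 and 58.6 ± 9.23 CPM with groups apart (edgeR adjusted p = 0.348). Rxra, with which NR4A receptors can pair, was at 67.5 ± 33.0 and 46.8 ± 20.3 CPM (edgeR adjusted p = 0.652), its relative Rxrb at 84.0 ± 11.5 and 98.95 ± 10.7 CPM (0.718) and the KLF corepressor Ctbp1 at 270.1 ± 47.8 and 299 ± 47.6 CPM (0.848).

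Among genes described as targets of the 3 families, 2 of 24 tested rose and 0 fell, 15 had a log2 fold change above 0 and the median was 0.22. The cell cycle inhibitor Cdkn1a, which is also a target of p53, rose from 357 ± 65.1 to 1064 ± 451 CPM, by 1.57 ± 0.25 on the log2 scale (edgeR adjusted p = 0.00525). The matrix genes Fn1 (73.1 ± 23.6 and 134 ± 24.4 CPM, edgeR adjusted p = 0.148), Col1a1 (14.1 ± 7.16 and 36.1 ± 10.9 CPM, 0.166) and Thbs1 (18.02 ± 5.41 and 38.7 ± 14.3 CPM, 0.182) did not pass. Col1a1 is also in the list of fibroblast markers.

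Early response genes outside the 3 families gave calls in 1 direction. Of 60 listed, 50 were tested, of which 12 rose, 0 fell and 47 had a log2 fold change above 0, with a median of 0.86. They were the AP-1 subunits Fosl1, Fosb and Jund, the small Maf factors Maff and Mafk, the phosphatase Dusp5, the nuclear factor Csrnp1, the growth factor Hbegf, the kinases Plk2 and Plk3, the stress gene Ier3 and the EGF receptor inhibitor Errfi1, with log2 fold changes from 1.03 to 2.79. Dusp5, which switches off nuclear ERK, rose from 36.2 ± 12.1 to 114 ± 9.11 CPM, by 1.65 ± 0.24 on the log2 scale (edgeR adjusted p = 0.00242). Csrnp1 rose from 189 ± 50.8 to 469 ± 75.0 CPM (1.31 ± 0.22, edgeR adjusted p = 0.00655) and Maff from 13.2 ± 5.94 to 61.3 ± 35.3 CPM (2.17 ± 0.40, edgeR adjusted p = 0.0127). Fosl1 (2.79 ± 0.27) and Fosb (1.48 ± 0.25) completed the 5 with the smallest p. The count was 23 by DESeq2, 6 without untreated replicate 5 and 5 without untreated replicate 3 or irradiated replicate 1.

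Heat shock genes, which tissue dissociation is also known to induce, gave 0 calls in either direction among 13 tested of 15 listed, with a median of 0.20. Of the 13, 11 had a log2 fold change above 0, against 47.5% of all tested genes. At an unadjusted p under 0.05, 3 were higher, and DESeq2 and limma-voom called 0. Their summed level was 13655 to 22367 CPM in untreated libraries, lowest in replicate 2, and 15561 to 32971 CPM in irradiated libraries, highest in replicate 4. The cochaperone Bag3 was at 181 ± 62.6 and 329 ± 92.0 CPM (edgeR adjusted p = 0.186), Cryab at 111 ± 40.0 and 179 ± 53.7 CPM (0.331) and Hspb1 at 2549 ± 530.5 and 4412 ± 2495 CPM (0.348). For Hspb1 the log2 fold change was 0.79, and 0.33 without irradiated replicate 4. Reads of the near-identical Hspa1a (4149 ± 901 and 5370 ± 2157 CPM) and Hspa1b (2394 ± 541 and 3458 ± 2544 CPM) could have been split by the counting. The log2 fold change of Hspa1b was 0.53, and it was negative without irradiated replicate 4. The part of dissociation in the levels of the 8 factors was not tested.

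**Figure D4:**
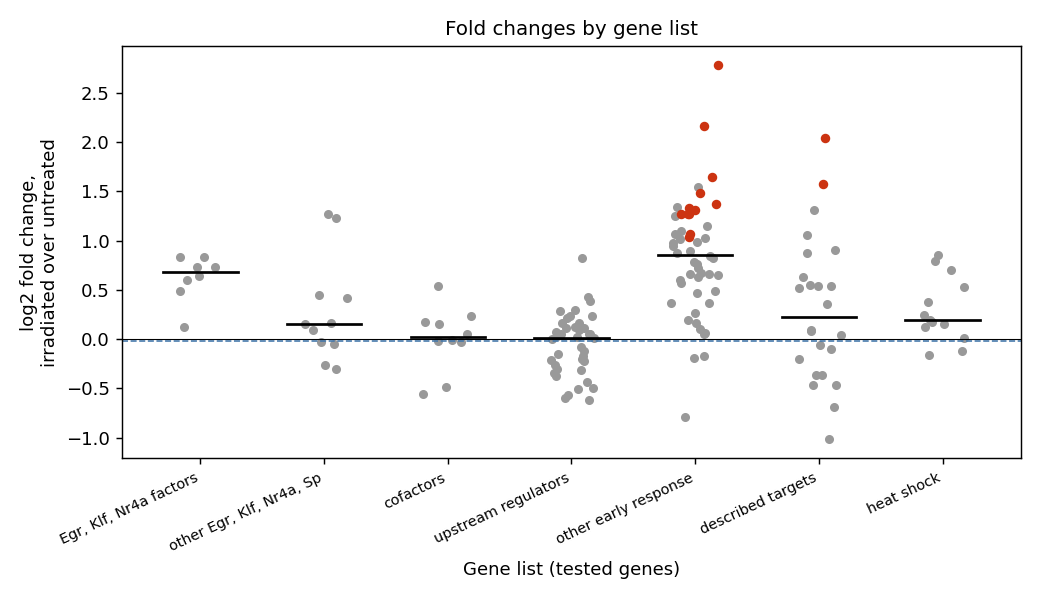
The log2 fold change of irradiated over untreated libraries (vertical axis) for each tested gene of 7 lists (horizontal axis), in red where edgeR's adjusted p was under 0.05, with a black bar at the list's median and a dashed line at the median of all tested genes, -0.024. The 8 factors lie above 0 with no call, and 12 of the 50 other early response genes are called.

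The 5 genes whose levels followed those of the 8 factors most closely were Hnrnph1, Fosb, Scarf2, Meg3 and Col1a1. They were ranked among 7453 tested genes averaging 20 CPM or more by the Pearson correlation of their log2(CPM + 1) with the mean standardized level of the 8 factors over 9 libraries, which holds the difference between the groups. The correlation was 0.98 for the splicing factor gene Hnrnph1 (Spearman 1), 0.97 for Fosb (1), 0.96 for Scarf2 (0.97), 0.96 for the noncoding RNA Meg3 (0.92) and 0.96 for Col1a1 (0.98). With group means removed it was 0.96 for Hnrnph1 and Fosb, 0.90 for Scarf2, 0.89 for Meg3 and 0.91 for Col1a1. These values come from the same 9 libraries that ranked the genes, so they are no separate support. Hnrnph1 averaged 114 ± 19.03 CPM untreated and 163 ± 18.5 CPM irradiated (edgeR adjusted p = 0.2398) and Scarf2 25.2 ± 5.18 and 44.2 ± 8.54 CPM (0.1995). Meg3 rose from 83.3 ± 36.1 to 262 ± 55.3 CPM, by 1.65 ± 0.32 on the log2 scale (edgeR adjusted p = 0.0221). That call was lost when untreated replicate 3 or any 1 of the irradiated libraries was left out (adjusted p of up to 0.107).

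**Figure D5:**
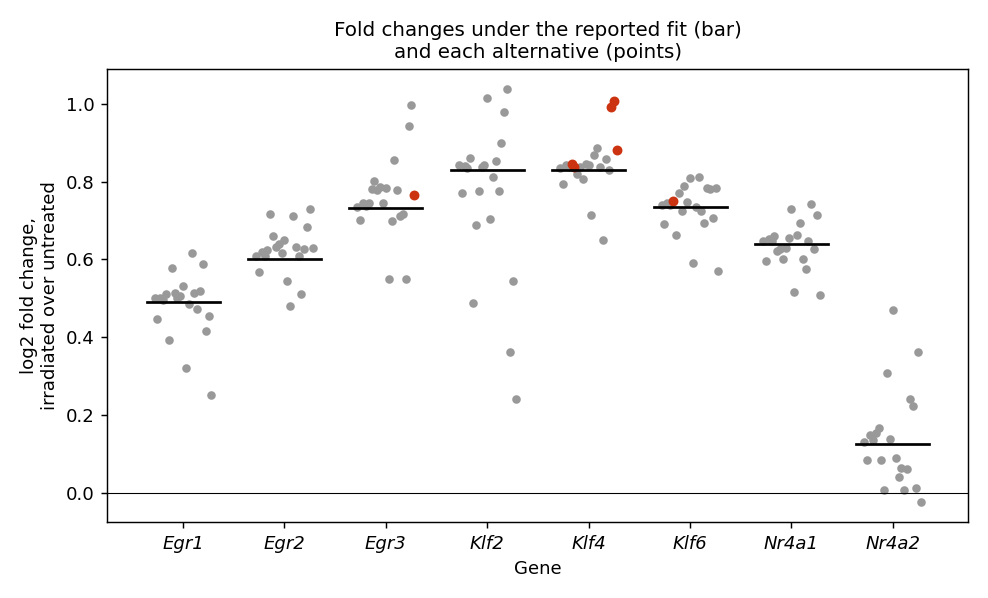
The log2 fold change of each factor (vertical axis, genes along the horizontal axis) under the reported fit (black bar) and under each of 21 alternatives (points), in red where the adjusted p was under 0.05. Klf4 was called in 5 alternatives and Klf6 and Egr3 in 1 each, and Klf2 and Nr4a2 moved most.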

How the data were processed

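Per the labels, thymic tuft cells were sorted and profiled by bulk MARS-seq. Tools named in the submitters' processing notes, without roles, are STAR 2.5.2b, HTSeq, bcl2fastq, cutadapt and DESeq2, with the build mm10. The sources used here do not say whether molecular identifiers were collapsed or which strand was counted, so that a count may be a read or a molecule. In mm10 (GENCODE) none of the 8 genes shares exon bases with another gene.

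The raw columns hold counts per gene, per the file headers, and the smallest maximum over libraries in the deposited table is 6 counts. The normalized columns and their mean hold the signal the authors made by dividing counts by 1 size factor per library, which was checked for all 9 libraries. The regularized columns are log2 values made by the authors and were not used, and the log2 fold change in the authors' comparison is of untreated over irradiated. Its deposited p-value columns were used only where named, and other deposited columns are the authors' flags.

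The test was edgeR 4.0.16 under R 4.3.3 (filterByExpr with a minimum count of 10, TMM, robust quasi-likelihood F tests, Benjamini-Hochberg at 0.05). Library totals are those of all listed genes. The standard error is the log2 fold change divided by the square root of F, and intervals are 95%. The biological coefficient of variation was 28.9%. Counting errors cover counting only. The script was tested on simulated data.

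The members, lists and tests were chosen with earlier results of these data known. Named were all members, the other tested Egr, Klf and Nr4a genes, the 5 genes of each other list with the smallest p, markers where a value touches a result, and the 5 genes most like the members. Some genes that this rule names are not reported here. The other genes called in the early response list were named after their values were seen. Alternatives used DESeq2 1.42.0, limma 3.58.1, other scaling and filters, thinning to 509157 counts, a replicate block and left-out libraries.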

Additional observations from a re-analysis of the deposited data

Results flagged for a closer look

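Among 108 groups of libraries examined for a single library far from the rest, 8 were marked, where chance marks about 1 in 20. Of the 8 factors, Klf4 in untreated replicate 2 (850.4 CPM, against 1284 to 1418 in the other untreated libraries) and Nr4a2 in untreated replicate 1 (46.1 CPM, against 16.7 to 23.7) stood apart.

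The following 4 levels of named genes did so. Klf9 was at 42.1 CPM in irradiated replicate 4 (69.4 to 71.8 in the others of its group), Maff at 114 CPM in irradiated replicate 4 (35.9 to 48.2), Nfatc3 at 59.1 CPM in irradiated replicate 2 (36.95 to 39.0) and Rxra at 124 CPM in untreated replicate 2 (41.9 to 64.4). Summed thymocyte markers were at 961 CPM in untreated replicate 1 (82.2 to 255 in the other untreated libraries) and those of cortical and medullary epithelium at 3242 CPM in untreated replicate 2 (872 to 1352).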

How the results depend on the processing

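Of 168 log2 fold changes of the 8 factors under 21 alternatives, 160 kept their direction and their side of the threshold, 7 passed in addition and 1 reversed, that of Nr4a2 (-0.022 without both untreated replicate 2 and irradiated replicate 4, a pair added once the data had been seen; 0.0088 to 0.47 over the fits without 1 library). The number of factors called higher was 2 by DESeq2, 1 by limma-voom, 1 without both untreated replicate 1 and irradiated replicate 4, 2 without both untreated replicate 2 and irradiated replicate 4, and 0 to 1 over the fits that left out 1 library. It was 0 with the replicate block and 0 lower in every alternative. All tested genes called higher numbered 184 by DESeq2, 147 without both untreated replicate 2 and irradiated replicate 4, and 50 to 114 without 1 library (50 without irradiated replicate 1, 62 without untreated replicate 3 and 64 without irradiated replicate 2). Those called lower numbered 100 by DESeq2, 24 by limma-voom, 22 with the replicate block, 6 after thinning, 17 without both untreated replicate 2 and irradiated replicate 4, and 2 to 12 without 1 library. The cause was not tested. Same-numbered libraries deviated together with correlations of -0.09 to 0.14, so the numbers were not taken to pair them; of the tested genes 113 were called with the replicate block and 85 in the same libraries with no block. Of the other 36 named genes, 731 of 753 values were unchanged in direction and call, 7 passed in addition, 6 no longer passed and 9 reversed. Klf9 reversed with limma-voom (0.0638), on leaving out untreated replicate 1 (0.0628), untreated replicate 4 (0.044) and irradiated replicate 4 (0.11), the range over left-out libraries being -0.13 to 0.11, and without irradiated replicate 4 together with untreated replicate 1 (0.20) or 2 (0.011). Hspa1b reversed without irradiated replicate 4 (-0.12, with a range up to 0.78 over left-out libraries) and without it and untreated replicate 2 (-0.21), as did Hspa1a in the latter (-0.012, and 0.073 to 0.56 over left-out libraries). Depth limits mainly Nr4a2 and Egr2, with as few as 12 and 30 counts in a library.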
